A study of Mus musculus with 10 samples.

Results

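The regions described here are isolated SOX2 binding sites inside genes of mouse embryonic stem cells. Of 2369 SOX2 regions that had a peak in both SOX2 libraries, 765 (32.3%) were of this kind. They were chosen by measured values: peaks of the 2 SOX2 lists were merged where they shared at least 1 bp, and a region was kept when both libraries had a peak in it, which 2369 of 5115 merged regions did. A member had its summit, the point of highest signal in the peak of higher rank, inside a protein-coding gene and over 5 kb from every protein-coding gene start and end. The edge of the next kept region was over 12500 bp away. The steps left 1069 kept regions with a summit in a gene, 867 of them over 5 kb from gene starts and ends, and 102 of these were dropped because another kept region was close. The other kept regions comprised 949 isolated ones between genes, 445 within 5 kb of a gene start or end and 210 that lay close to another region.

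SOX2 is a transcription factor of the HMG-box family, whose DNA-binding domain sits in the minor groove and bends the DNA. In embryonic stem cells it often binds beside the POU factor OCT4, and much of this binding is at enhancers, the regulatory DNA that can lie far from a promoter and inside the gene it acts on or inside a neighbour. SOX15 is a relative with a similar HMG box and recognises the same core word in DNA. A site in the body of a gene marks where the factor sat and does not by itself name the gene that it acts on, so gene names below give positions.

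The SOX2 libraries came from embryonic stem cells with an HA tag knocked into SOX2, and the SOX15 libraries from cells with that tag knocked into SOX15, per the series' design text. All cells were grown in 2i/LIF, which blocks differentiation signals and adds the cytokine LIF, and were fixed with 1% formaldehyde for 5 min. There were 2 SOX2 and 3 SOX15 ChIP libraries and 5 inputs, which were not used for any value here. The labels give neither strain, clone number nor whether replicates were separate cultures, so the spread between libraries may be technical. Groups and replicate numbers came from the sample titles. The lists held 2676 and 4817 peaks in SOX2 replicates 1 and 2, and 217, 672 and 437 in SOX15 replicates 1, 2 and 3. Every peak carries the authors' fold, a linear enrichment over background, which ranks peaks within 1 list only. Lists of peaks hold no read counts, so depth is unknown, and binding too weak to be called would show no peak. SOX15 replicate 3 stood apart from the other SOX15 libraries at SOX2 sites, and each SOX15 result below is given per library.

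The member in Larp7 lay beside the miR-302/367 cluster, a group of microRNAs that are abundant in pluripotent cells, and their sequences are shown because it was the 1 member with a microRNA hairpin within 1 kb. This site was singled out after its values were seen. The region (chr3:127544401-127545201) had SOX2 folds of 20.4 and 37.2 in replicates 1 and 2, stood at rank 25 of the 765 members, and had a peak in SOX15 replicate 3 with a fold of 5.75. Its edge was 27 bp from the Mir302b hairpin and its summit 423 bp away, and Mir302c, Mir302a, Mir302d and Mir367 followed on the same strand, the last of them 532 bp from the edge. Larp7, whose protein binds the 7SK RNA, is read from the opposite strand and is 16.6 kb long. The mature sequences below are from RefSeq (GRCm38.p6), 5′ to 3′, with the seed, bases 2 to 8, in capitals.
mmu-miR-302b-3p: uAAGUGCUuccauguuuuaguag
mmu-miR-302d-3p: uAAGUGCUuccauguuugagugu
mmu-miR-302c-3p: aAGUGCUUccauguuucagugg
mmu-miR-302a-5p: aCUUAAACgugguuguacuugc
mmu-miR-302b-5p: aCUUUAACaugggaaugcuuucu
mmu-miR-302c-5p: gCUUUAACaugggguuaccugc
mmu-miR-302d-5p: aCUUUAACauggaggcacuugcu
mmu-miR-367-3p: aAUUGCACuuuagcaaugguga
mmu-miR-367-5p: aCUGUUGCuaacaugcaacuc
The 3p arms of miR-302b and miR-302d shared the seed AAGUGCU, and miR-302c-3p, which RefSeq starts 1 base further on, had AGUGCUU. The 5p arms of miR-302b, miR-302c and miR-302d shared CUUUAAC. The seeds of miR-367 and of miR-302a-5p had no partner among the sequences shown, and miR-302a-3p belongs to the same cluster. Of the other members, 10 had a hairpin within 10 kb, and their hairpins lay 2740 bp or more from the region.

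The long noncoding RNA gene Gm51018 starts between the Larp7 member's summit and the hairpins, at chr3:127545089, and runs over the cluster to 127546903. Its promoter window, the 250 bases before and 50 after its start in RefSeq (GRCm38.p6), covered the downstream part of the region, and its first base lay 34 bp past the summit.
Gm51018, chr3:127544839-127545138, plus strand: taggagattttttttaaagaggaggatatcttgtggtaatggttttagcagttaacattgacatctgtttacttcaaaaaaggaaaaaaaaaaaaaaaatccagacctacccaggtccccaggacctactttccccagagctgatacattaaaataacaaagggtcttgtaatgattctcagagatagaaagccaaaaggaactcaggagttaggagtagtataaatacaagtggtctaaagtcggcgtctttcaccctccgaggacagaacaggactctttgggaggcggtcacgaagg
None of the 7 words searched was in this window: the SOX site CATTGT, the octamer ATGCAAAT, the OCT-SOX composite TTGTNATGC, the ESRRB site TCAAGGTCA, the KLF site GGGTGTGG, the TEAD site GGAATG and the reversed SOX site TGTTAC. Each was searched on both strands, and the composite shares letters with the SOX site and the octamer. The summit itself was outside the window, so these letters were not read at the summit.

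Most members were far from any RefSeq start, and 11 promoter windows touched 10 of them. Any start, of noncoding genes and of shorter transcripts too, was within 1 kb of 19 of the 737 members for which starts could be looked up (2.58%). For 5 windows the summit lay inside. They are shown because they are the places where the letters under a summit could be read. The SOX site, in capitals in the first pair, was in the windows of 1700019D03Rik and of Lpar1, which encodes a receptor for lysophosphatidic acid.
1700019D03Rik, chr1:52953565-52953864, minus strand: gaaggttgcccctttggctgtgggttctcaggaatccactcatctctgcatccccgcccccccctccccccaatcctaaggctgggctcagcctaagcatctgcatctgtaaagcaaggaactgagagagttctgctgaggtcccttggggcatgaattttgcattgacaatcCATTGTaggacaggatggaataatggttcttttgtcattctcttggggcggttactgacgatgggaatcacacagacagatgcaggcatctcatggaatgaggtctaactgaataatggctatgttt
Lpar1, chr4:58499354-58499653, minus strand: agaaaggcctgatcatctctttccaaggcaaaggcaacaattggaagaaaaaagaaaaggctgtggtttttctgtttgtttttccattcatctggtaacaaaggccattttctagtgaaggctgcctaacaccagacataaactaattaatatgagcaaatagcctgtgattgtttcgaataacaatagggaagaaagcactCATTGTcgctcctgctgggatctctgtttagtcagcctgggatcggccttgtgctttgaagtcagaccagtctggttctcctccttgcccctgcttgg
Counted from the first base of each window, the site lay at bases 174 to 179 of the first window and 203 to 208 of the second. Its middle was 19.5 and 15.5 bp from the summit, in the same order. The 1700019D03Rik region had SOX2 folds of 18.7 and 25.46 in replicates 1 and 2, and the Lpar1 region 10.0 and 7.01. Neither had a SOX15 peak. Of the other words, the first window also held 1 TEAD site, a word in 14.7% of all windows, and the second 1 reversed SOX site, a word in 7.64%. The SOX site occurred in 12.6% of all 32851 windows of the RefSeq table, and in 13 of the 32 windows (40.6%) that held the summit of any SOX2 region of both libraries.

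The other windows with a summit inside lacked the SOX site. In these sequences the 21 bases round the summit, 10 on each side of it, are in capitals. Wnt5b encodes a WNT ligand and Kdm3a a histone H3 lysine 9 demethylase, and Gm29695 is a long noncoding RNA gene inside Lemd1.
Wnt5b, chr6:119449337-119449636, minus strand: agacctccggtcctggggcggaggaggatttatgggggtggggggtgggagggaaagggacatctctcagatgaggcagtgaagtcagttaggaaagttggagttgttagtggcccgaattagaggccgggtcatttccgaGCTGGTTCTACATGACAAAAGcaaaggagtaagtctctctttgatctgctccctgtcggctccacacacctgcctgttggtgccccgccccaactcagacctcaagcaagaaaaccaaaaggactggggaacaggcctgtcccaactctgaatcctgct
Kdm3a, chr6:71609090-71609389, minus strand: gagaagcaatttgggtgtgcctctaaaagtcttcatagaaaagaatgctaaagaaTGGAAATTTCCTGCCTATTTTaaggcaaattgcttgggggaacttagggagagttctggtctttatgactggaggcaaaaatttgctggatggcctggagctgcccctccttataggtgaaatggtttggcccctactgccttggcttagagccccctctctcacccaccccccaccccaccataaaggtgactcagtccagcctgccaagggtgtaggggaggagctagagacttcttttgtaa
Gm29695, chr1:132200836-132201135, plus strand: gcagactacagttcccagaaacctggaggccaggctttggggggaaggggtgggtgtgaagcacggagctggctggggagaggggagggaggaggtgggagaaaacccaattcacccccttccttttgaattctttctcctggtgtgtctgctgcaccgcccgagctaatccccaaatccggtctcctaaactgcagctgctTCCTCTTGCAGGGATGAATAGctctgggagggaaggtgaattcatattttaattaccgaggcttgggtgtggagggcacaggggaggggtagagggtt
The SOX2 folds at these members were low: 7.19 and 9.56 in Wnt5b, 4.98 and 8.30 in Kdm3a, and 3.88 and 6.16 in Lemd1, in replicates 1 and 2 of each. Of the words searched, 1 match to the KLF site, in the Gm29695 window, was found, a word that 3.56% of all windows held. None of these 3 members had a SOX15 peak. The letters of the other members were not read here.

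SOX2 enrichment at the members covered a wide range and was similar to that of the other regions. The fold in SOX2 replicate 1 was 3.504 at the lowest, 8.73 at the median and 60.6 at the highest member, and in replicate 2 it was 3.75, 10.9 and 53.0. The other 1604 kept regions had medians of 8.67 and 11.2. Since SOX2 peaks chose the members, these values describe them and were not tested. The median width was 406 bp (range 221 to 974). Replicate 2 gave the larger fold at 544 members (71.1%), and the ratio of the replicate 2 to the replicate 1 fold ran from 0.289, at a member in Auts2, over a median of 1.22 to 4.71 in Specc1. Across the members the folds of the 2 libraries had a Spearman correlation of 0.613, against 0.558 across the other regions, as a description of lists from the same cells. The summits of the 2 libraries were a median of 21 bp apart, 628 members (82.1%) had them within 50 bp, and the largest gap was 347 bp. Members needed overlapping peaks of both libraries, so close summits were in part set by the rule.

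**Figure D1:**
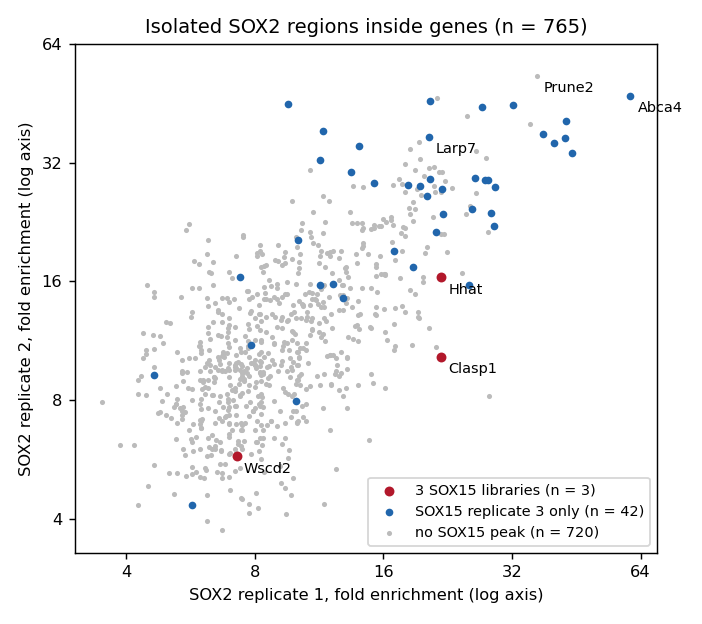
Authors' fold enrichment in SOX2 replicate 1 (x axis, log scale) and replicate 2 (y axis, log scale) for the 765 members, with 1 point per region. Red points had a peak in 3 SOX15 libraries (n = 3), blue points in SOX15 replicate 3 only (n = 42) and grey points in none (n = 720); most blue points lie at the upper right, and the red point of Wscd2 lies among the weak SOX2 regions.

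The strongest members lay in genes of quite different roles. Members were ranked by the mean of the percentile ranks of their fold in both lists. The first, in Abca4, a retinoid transporter of photoreceptors, had folds of 60.6 and 47.3 in SOX2 replicates 1 and 2 at chr3:122145268-122145901. It lay 34.5 kb from the nearest end of the gene. The member in Sptlc2, a subunit of the first enzyme of sphingolipid synthesis, had 42.7 and 40.9. In Prune2 it was 36.6 and 53.0, the highest value in replicate 2 among the members. Genes of membrane and nerve function followed. Kcnh8, a voltage-gated potassium channel, had 42.5 and 36.9, and Ephb1, an ephrin receptor, had 37.7 and 37.9. In Tenm3, a teneurin of neuronal wiring, the folds were 40.2 and 35.8. This site was the deepest of all members, 526 kb from the nearest protein-coding gene start or end.

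Ranks 7 to 15 mixed housekeeping and specialised genes. Epb41l4a, of the band 4.1 family, had 35.2 and 40.1, and Fryl had 44.3 and 33.95. Sars, the seryl-tRNA synthetase of the cytosol, had 32.2 and 44.9 in a gene of 20.4 kb. The others were in the kinesin gene Kif28 (27.2 and 44.2), Ptprn2 (27.8 and 32.9), Gm11639 (25.1 and 42.0), the CCR4-NOT subunit gene Cnot2 (26.3 and 34.2), the overlapping genes Cmss1 and Filip1l (28.1 and 28.9), and Rims2 of the presynaptic active zone (29.2 and 27.8). At these 15 the summits of the 2 libraries were at most 33 bp apart. The 3 lowest-ranked members were in Sh3rf2 (5.18 and 4.64), Slc10a7 (4.51 and 4.86) and Aoah (4.27 and 4.35).

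The limits of the rule cut through a continuum. The member nearest to a gene end was in Nt5e, 5018 bp inside with folds of 10.8 and 14.0, and the nearest region left out was in Slc7a3, at 4986 bp with 10.1 and 15.5. On the side of isolation, a region in Dclk2 with folds of 5.44 and 5.43 was left out, at 11681 bp from the next kept region. A SOX2 region of 1 library alone lay within 12500 bp of 73 members (9.54%), so for these isolation holds for regions of both libraries only.

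SOX15 had a peak at few of the members, and nearly all of those came from 1 library. SOX15 replicates 1, 2 and 3 had a peak at 3, 3 and 45 of the 765 members (0.392%, 0.392% and 5.88%, Wilson 95% interval for the last 4.43 to 7.78). Among all 2369 kept regions the shares were 3.04%, 3% and 7.81%. A peak of any SOX15 library was at 45 members, against 8.02% of all kept regions, and a peak of 2 or more libraries at 3 members, against 3.04%. The 3 were called in every SOX15 library and the other 42 in replicate 3 alone. A peak of replicate 3 alone was thus at 5.49% of members, against 4.85% of all kept regions. The list of replicate 3 also reached the lowest significance: its smallest −log10 q-value was 1.31, against 2.76 and 2.03 in replicates 1 and 2. With SOX15 peaks of −log10 q of 3 or more, 5.62% of the members kept a peak.

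The members called in all 3 SOX15 libraries were in Hhat, Clasp1 and Wscd2. Hhat encodes the acyltransferase of hedgehog proteins and Clasp1 a protein of growing microtubule ends. At Hhat (chr1:192745419-192746143) the SOX2 folds were 21.8 and 16.4 in replicates 1 and 2, and the SOX15 folds 47.3, 44.9 and 42.9 in replicates 1, 2 and 3. This region covered Gm22265, a small nuclear RNA gene (snRNA) 36 bp from the summit. At Clasp1 (chr1:118458763-118459379) they were 21.9 and 10.3 for SOX2 and 25.9, 30.7 and 28.7 for SOX15. At Wscd2 (chr5:113506616-113507172) they were 7.25 and 5.76 for SOX2 and 17.4, 25.4 and 19.5 for SOX15. Their SOX2 ranks were 79, 183 and 695, so strong SOX15 enrichment here did not go with the strongest SOX2 peaks. Clasp1 and Wscd2 had no snRNA or small nucleolar RNA (snoRNA) gene within 1 kb, the nearest being 5612 and 462619 bp from the summit.

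The Clasp1 region covered the start of the long noncoding RNA gene 2900060B14Rik, whose window is shown because it is the readable sequence at a site of all 3 SOX15 libraries. The octamer, in capitals, is a binding word of POU factors, and 1.74% of all windows held it.
2900060B14Rik, chr1:118459216-118459515, minus strand: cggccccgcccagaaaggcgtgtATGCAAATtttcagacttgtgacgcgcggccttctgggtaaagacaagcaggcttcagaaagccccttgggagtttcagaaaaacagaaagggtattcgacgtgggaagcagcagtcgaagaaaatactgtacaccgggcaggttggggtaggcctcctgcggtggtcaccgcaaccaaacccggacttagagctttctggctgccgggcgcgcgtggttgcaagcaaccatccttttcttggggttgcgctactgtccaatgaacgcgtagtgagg
The octamer lay at bases 24 to 31 of the window, 392 bp from the SOX2 summit and outside the region, and the SOX site was not in this window.

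At the 42 members of SOX15 replicate 3 alone, the peaks of both factors mostly lay close together and SOX2 was mostly strong. Their median SOX2 folds were 20.5 and 28.0 in replicates 1 and 2, and the lowest values were 4.64 and 4.35. Over all 45 members with a replicate 3 peak, its summit was a median of 37 bp from the SOX2 summit, and 41 were within 100 bp. A SOX15 peak counted only where it overlapped the region, so this closeness was in part set by the call. The SOX15 replicate 3 fold was 4.18 at the lowest, 6.83 at the median and 11.8 at the highest of the 42. The 45 had median SOX2 folds of 20.5 and 27.8 in replicates 1 and 2, against 8.42 and 10.6 at the 720 members with no SOX15 peak. Beyond the highest ranks, sites of this kind were in Sox13, another SOX factor gene (27.6 and 28.8 for SOX2, 5.54 for SOX15 replicate 3), Rgma, a repulsive guidance molecule (28.6 and 23.9, 6.26), Arid1b, a subunit of the BAF chromatin remodeller (21.2 and 21.4, 8.71), and Lats2, a kinase of the Hippo pathway (14.0 and 35.4, 7.35). Sox13 and Rgma were picked as examples after their values were seen. The SOX15 fold exceeded both SOX2 folds at 5 of the 45, among them Hhat, Clasp1, Wscd2 and Sh3gl2, and was below both at 38, although folds of different lists are not on 1 scale.

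The members with a SOX15 replicate 3 peak were mostly at the top of the SOX2 ranking. They were 39 of the 255 highest-ranked members (15.3%, interval 11.4 to 20.2), 3 of the next 255 (1.18%, interval 0.401 to 3.40) and 3 of the lowest 255. Of the 15 highest-ranked members 10 had such a peak, and of the 50 highest 22 (44%). Those without one included Prune2, Epb41l4a, Ptprn2, Gm11639 and Cnot2, all with SOX2 folds above 25 in both libraries. SOX15 replicates 1 and 2 had no peak at any of these 15. Over all 2369 kept regions, of every rank, SOX15 replicate 3 had a peak at 7.81%. Shares by rank are not given here for the other SOX2 regions, so the pattern is not shown to be particular to the members. The ranking itself was made with SOX2 values and the SOX15 calls were not part of it, but no test was made over regions, which share 1 library.

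**Figure D2:**
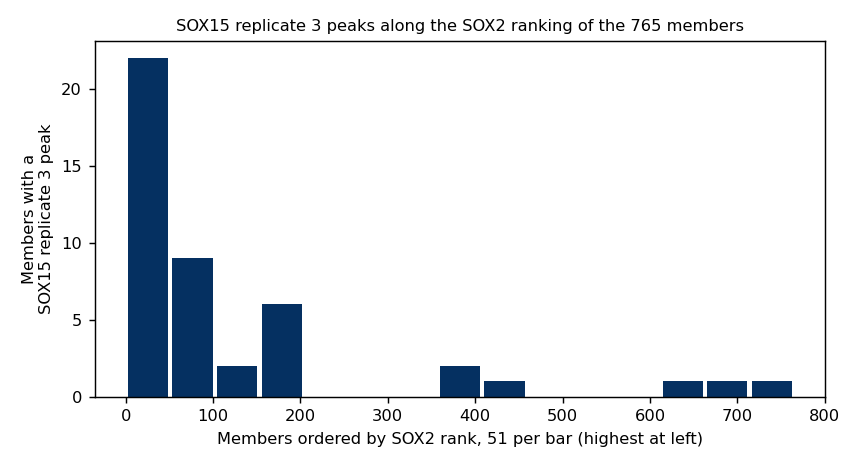
Number of members with a SOX15 replicate 3 peak (y axis) along the SOX2 ranking (x axis), in 15 bars of 51 members each with the strongest at the left. The first bar holds 22 and the second 9 of the 45 members, and 6 bars hold none.

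The share of regions with a SOX15 peak was lower in members than in the other SOX2 regions in each of the 3 SOX15 libraries. Of the other 1604 regions 69, 68 and 140 had a peak in SOX15 replicates 1, 2 and 3 (4.30%, 4.24% and 8.73%). Members minus others was −3.91, −3.85 and −2.85 percentage points in the 3 libraries (mean −3.53 ± 0.597, SD, n = 3), lower in each (two-sided exact sign-flip permutation test over libraries, p = 0.25, the smallest that 3 libraries allow). Small RNA and histone genes moved with this difference. An snRNA or snoRNA gene was within 1 kb of 2 members and 36 of the other regions. Clustered histone genes were near 0 members, which the 5 kb distance from protein-coding gene starts and ends fixed in advance. Regions away from all such genes numbered 763 members and 1548 others. Without regions within 1 kb of such genes the difference was −0.836, −0.836 and 0.0820 points (mean −0.530 ± 0.530, SD, n = 3, exact permutation p = 0.5), and replicate 3 had no lower share in members. The part of these genes in the SOX15 signal was not tested.

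Against the 949 isolated regions between genes the difference had no common direction. SOX15 replicates 1, 2 and 3 had a peak at 0.392%, 0.392% and 5.88% of members and at 0.843%, 0.738% and 4.95% of these regions (8, 7 and 47), and members minus these was −0.451, −0.345 and 0.930 points (mean 0.0445 ± 0.768, SD, n = 3, exact permutation p = 1). Regions within 5 kb of gene starts and ends had 45, 46 and 68 of 445, so that members minus these was −9.72, −9.94 and −9.40 points (mean −9.69 ± 0.275, SD, n = 3, exact permutation p = 0.25). That gap shrank to −2.43, −2.92 and −2.30 points without regions near the small RNA and histone genes (mean −2.55 ± 0.325, SD, n = 3, exact permutation p = 0.25) and kept its sign in each library. Against the 210 clustered regions it was −7.23, −6.75 and −6.02 points (mean −6.67 ± 0.607, SD, n = 3, exact permutation p = 0.25), and −0.253, 0.262 and 0.0966 points without those near such genes (exact permutation p = 0.75).

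**Figure D3:**
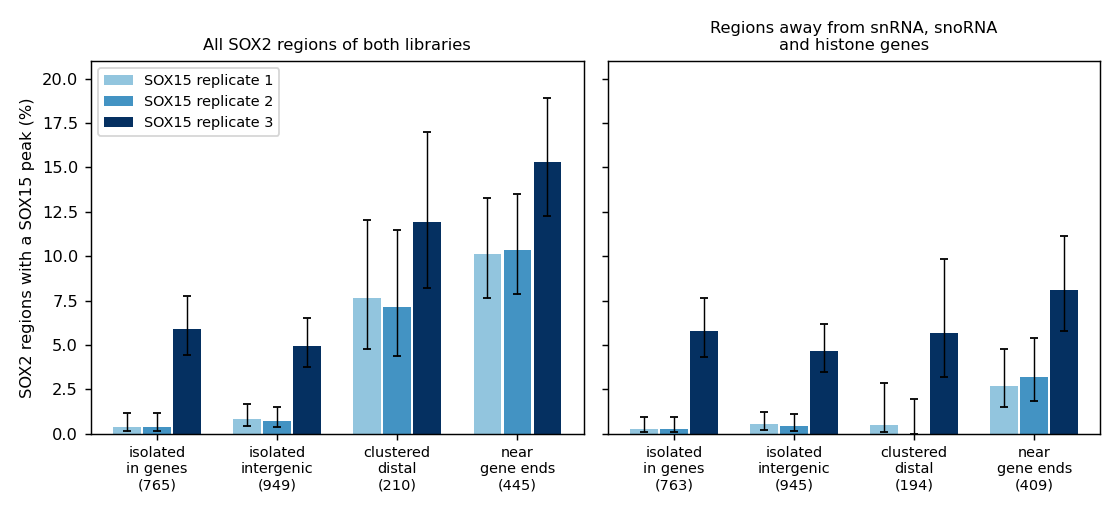
Percent of SOX2 regions with a peak in SOX15 replicates 1, 2 and 3 (bars, with Wilson 95% intervals that cover counting error), for members at the left and the other classes of SOX2 regions, numbers of regions in brackets. In the left panel replicate 3 reached 5.88% of members and 15.3% of regions near gene ends, and in the right panel, without regions within 1 kb of snRNA, snoRNA and clustered histone genes, 5.77% and 8.07%.

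The members were spread over 681 host genes, mostly long ones and mostly 1 to a gene. Genes over 10 kb can hold a member, and 4.9% of these 13886 genes did. The host of the median member was 152 kb long, against 33.4 kb for the median gene over 10 kb. The share of genes with a member was 0.532% at 10 to 25 kb, 2.58% at 25 to 50 kb, 6.28% at 50 to 100 kb, 10.3% at 100 to 200 kb, 22.9% at 200 to 400 kb and 30.2% above 400 kb. Per length the picture was flatter. Gene interiors, the bases over 5 kb from every gene start and end, amounted to 853 Mb and held 0.897 members per Mb (exact Poisson 95% interval 0.834 to 0.963). By gene length the density was 0.848, 1.06, 1.10, 0.867 and 1.09 per Mb up to 400 kb and 0.594 (0.501 to 0.700) above. These intervals cover counting error only. All kept regions together had 1.02 per Mb in gene interiors and 0.742 per Mb between genes.

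**Figure D4:**
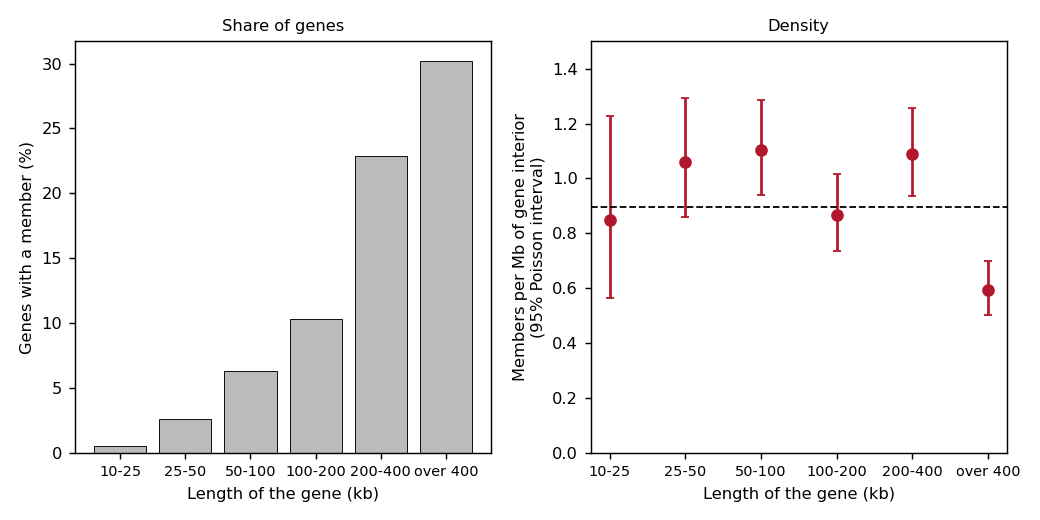
Percent of protein-coding genes with a member (left) and members per Mb of gene interior with exact Poisson 95% intervals (right), by length of the gene in kb; the dashed line marks all genes, 0.897 per Mb. The share climbs from 0.532% to 30.2%, while the density stays between 0.848 and 1.10 up to 400 kb and is 0.594 above.

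Within the genes the members lay at all depths. The median distance to the nearest protein-coding gene start or end was 32.4 kb, and 271 members (35.4%) were over 50 kb from one. The next kept region was a median of 223 kb away. The strand of the host was known for 583 members, and 303 of them (52.0%, Wilson interval 47.9 to 56.0) were closer to the start of the gene than to its end. In 5 equal steps from the start of the gene to its end, 114, 121, 130, 133 and 85 members were found. SOX2 folds showed no steady course with depth. At 5 to 10, 10 to 25, 25 to 50, 50 to 100 and over 100 kb from the nearest gene start or end there were 115, 210, 169, 133 and 138 members, with median folds of 8.27, 8.82, 8.25, 10.1 and 8.43 in replicate 1 and 11.4, 10.9, 10.3, 12.2 and 10.8 in replicate 2. In the same steps SOX15 replicate 3 had a peak at 7.83%, 5.71%, 4.14%, 7.52% and 5.07% of the members. The gene table gives no exons, so whether a summit is in an intron or an exon is not stated here.

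Of the 681 hosts most held 1 member, and the few with 3 or more were 263 kb long or longer. There were 609 hosts with 1, 63 with 2, 4 with 3, 3 with 4 and 2 with 5 members. The pair with 5 members were transcription factor genes, Ebf1, of B cell and neuronal development, and Glis3, a zinc finger factor of pancreas and kidney. In Ebf1 they were 20.5 to 74.5 kb apart, with SOX2 folds of 5.07 to 14.2 in replicate 1 and 7.95 to 22.5 in replicate 2. In Glis3 the spacing was 15.9 to 105 kb and the folds were 4.64 to 11.9 and 6.02 to 14.6. Msi2, which encodes an RNA-binding protein of stem cells, Pakap and Etl4 held 4 each. The folds in Msi2 were 5.41 to 12.7 and 4.51 to 14.8, those in Etl4 6.94 to 17.7 and 9.38 to 28.3. A SOX15 peak was at 0 of the 22 members in these 5 genes. That allows a share of up to 13.6% (3 divided by 22) and so does not set them apart from the 5.88% of all members. Vti1a, a SNARE protein gene, held 3 members with folds of 8.49 to 17.97 and 11.9 to 21.9, and 3 each lay in Auts2, Clstn2 and Ppp1r9a.

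Of 20 gene lists, that of lineage transcription factors had the highest density of members among the lists with 5 or more members. Some lists with fewer members stood higher with wide intervals, among them TEAD and Hippo genes with 4 members (2.87 per Mb, 0.782 to 7.35). The lists were written with earlier results of these data known, and they hold 436 genes over 10 kb, of which 90 had a member (20.6%, against 4.9% of all genes over 10 kb). Listed genes are long, with a median of 173 kb, and per length they held 0.784 members per Mb (Poisson interval 0.645 to 0.945), against 0.897 in all genes. Lineage transcription factor genes had a member in 14 of 29, with 22 members at 2.21 per Mb (1.38 to 3.34). Their median length was 268 kb, and without the 5 members of Ebf1 the density was 1.77 per Mb. The strongest member of this list was in Nfib, a neural and lung factor, with SOX2 folds of 16.2 and 22.7. Gli2, an effector of hedgehog signals, had 12.02 and 19.0 at 5.16 kb from the nearest protein-coding gene start or end. The forkhead gene Foxp1 had 8.73 and 15.6. Sox5, whose factor acts in cartilage and neurons, held a pair with 8.29 and 10.6, and 6.38 and 12.6, and Sox6 held 1 with 7.99 and 7.66. Others were in Meis1, Meis2, Bnc2, Tcf12, Rfx3, Rfx4 and Rarb. The list's median folds were 8.45 and 9.73, against 8.73 and 10.9 over all members, and 0 of its 22 members had a SOX15 peak, which again allows up to 13.6%, against 5.88% of all members.

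Synaptic genes stood at the other end. Of 32 synaptic adhesion and scaffold genes 8 had a member, 1 each, at 0.248 per Mb (0.107 to 0.488), where genes above 400 kb as a whole had 0.594. Their median length was 996 kb. The strongest was in Lsamp, a cell adhesion protein of limbic neurons, with folds of 19.8 and 15.9. Members in Csmd1 (10.1 and 16.8), Cntn5 (10.9 and 12.1) and Ptprd (9.30 and 10.9) followed. Dlgap1, Ptprg and Opcml held weak ones with folds of 5.94 to 7.01. A SOX15 peak was at 0 of these 8, which allows up to 37.5%.

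Genes of adhesion, guidance and excitability held some of the strongest members at ordinary density. Ion channels and transmitter receptors had a member in 11 of 38 genes (0.589 per Mb), cadherins and cell adhesion genes in 10 of 35 (0.643 per Mb), and axon guidance and Eph receptor genes in 8 of 34 (0.662 per Mb). The intervals of these densities, 0.294 to 1.05, 0.332 to 1.12 and 0.317 to 1.22, all contained the 0.897 of all genes. Beside Kcnh8, the potassium channel gene Kcnq3 had folds of 25.48 and 24.8, and Kcnma1 had 14.8 and 18.8. In Kcnj6, an inward rectifier, they were 12.98 and 17.3. Adhesion genes were led by Ncam2, with 19.5 and 28.0 and a SOX15 replicate 3 fold of 7.41. Ctnnd2, encoding delta-catenin, had 24.4 and 16.8, and Cdh12 had 15.7 and 18.5. Ctnna1, the alpha-catenin of epithelial junctions, had 14.4 and 20.1, and the polarity gene Pard3b 16.1 and 16.6. The member in Cdh1, the E-cadherin gene that embryonic stem cells depend on for adhesion, was weak, with 5.82 and 6.46. Ephb1 held a second member with 13.8 and 18.8.

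Cytoskeletal genes held 19 members at a density whose interval contained that of all genes. Regulators of small GTPases and cytoskeletal genes had a member in 15 of 35 (1.31 per Mb, 0.791 to 2.05, against 0.897), with median folds of 8.01 and 9.47. Their median length was 345 kb. Dmd, the dystrophin gene, had the strongest, with 23.1 and 27.6. The guanine nucleotide exchange factor genes Dock1, with 13.5 and 22.5, and Dock2, with 12.2 and 19.1, came next. Of 30 genes of cyclic nucleotide and lipid signalling 7 had a member (0.676 per Mb), among them Sptlc2 and the lipid kinase gene Pip5k1b with 21.8 and 21.1. Extracellular matrix and integrin genes had 2 of 37 (0.428 per Mb), namely Fn1 and Adamtsl1, whose stronger member had 21.1 and 27.0.

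Hippo and chromatin genes held few members over short interiors, so their densities are wide. TEAD and Hippo genes had 4 of 19 (2.87 per Mb, 0.782 to 7.35). The member in Lats2 had folds of 14.0 and 35.4, at 5.66 kb from the nearest protein-coding gene start or end. The others were in Tead1, the DNA-binding effector of the pathway (15.4 and 13.8), Nf2 (10.2 and 10.9) and Wwc2 (9.99 and 12.9). Chromatin regulators had 5 of 31 with 7 members (1.81 per Mb, 0.726 to 3.72). Arid1b is described above. Jarid2, a cofactor of Polycomb repressive complexes, had a pair of members, the stronger with 17.97 and 27.0, and Tet3, a 5-methylcytosine dioxygenase, had 11.1 and 14.4. Kdm5b and Ehmt1 held the others.

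The pluripotency genes are mostly short, so that their lists say little about density. Of the 8 naive pluripotency genes over 10 kb, Tfcp2l1 had a member (6.20 and 13.8), and of 7 core cofactors Mybl2, a cell cycle factor (14.4 and 19.7, 7.96 kb from the start of the gene). These gene interiors amount to 0.363 and 0.0975 Mb, so that 1 member each gives 2.75 per Mb (interval 0.0697 to 15.3) and 10.3 per Mb (0.260 to 57.2), and both intervals contain the 0.897 of all genes. The signalling lists had 1 gene each: the WNT receptor Ror2 (9.57 and 8.31), the growth factor receptor Igf1r (12.1 and 16.8), the activin receptor Acvr1b (10.2 and 18.8) and the kinase Jak2, which acts downstream of the LIF receptor (11.4 and 11.5). Formative and primed genes had a member in 0 of 10, with 0.734 Mb of interior, which allows up to 5.03 per Mb. Housekeeping, liver and blood genes had 0 of 8, 10 and 10 over 0.0986, 0.112 and 0.333 Mb, which allow up to 37.4, 33.0 and 11.1 per Mb, so a density like that of all genes could not be told from none there.

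**Figure D5:**
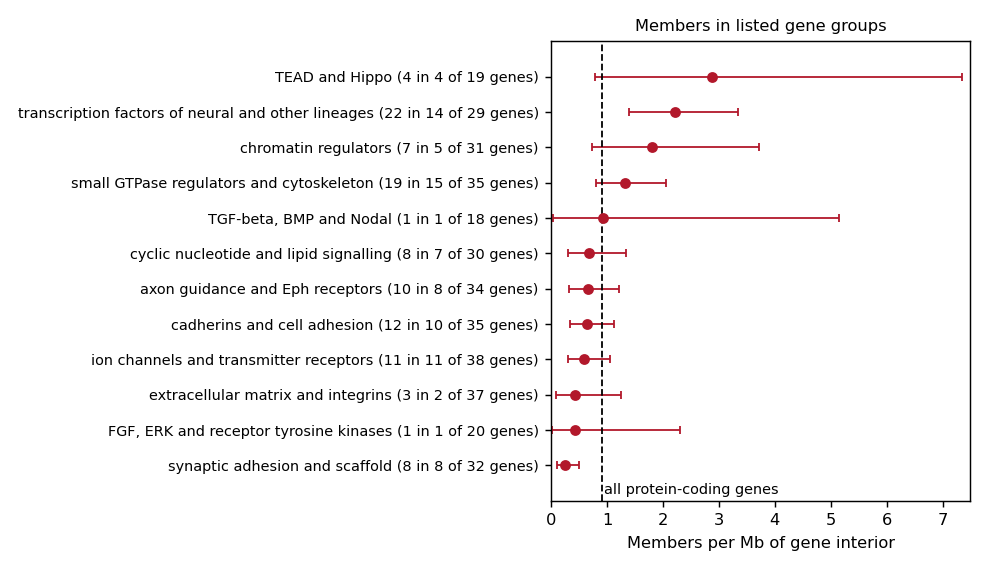
Members per Mb of gene interior (x axis, points, with exact Poisson 95% intervals) in the gene lists with 18 or more genes over 10 kb; labels give the members and the genes that hold them, and the dashed line marks all protein-coding genes at 0.897 per Mb. TEAD and Hippo genes, with 4 members and a wide interval, lie at 2.87, lineage transcription factors at 2.21 and synaptic adhesion and scaffold genes at 0.248.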

How the data were processed

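Peak lists of 2 SOX2 and 3 SOX15 ChIP libraries were used. The submitters' processing notes name Bowtie2, MACS2, deepTools and mm10 with no versions, and there is 1 list per sample. Each line of the lists deposited by the authors gives a peak's fold, which is a linear ratio to background, its p-value and q-value as −log10, a score and the summit's offset. The control used for peak calling is not stated in these sources. The members and the gene lists were chosen with earlier results of these data known.

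Genes were the 21627 protein-coding genes on 20 chromosomes of the RefSeq table of GRCm38.p6, whose coordinates equal those of mm10. Strand was known for 17273 of them. A SOX15 peak counted when it overlapped a region by at least 1 bp. Differences of shares were tested over the 3 SOX15 libraries with a two-sided exact sign-flip permutation test. Shares have Wilson and densities exact Poisson 95% intervals, which cover counting error only, and regions are not independent replicates. Where 0 members of a gene group had a SOX15 peak, the share allowed is 3 divided by the number of members, not a Wilson limit. Depth is unknown.

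Genes were named by a rule: hosts of the 15 highest- and 3 lowest-ranked members, members in 2 or more SOX15 libraries, up to 25 members in listed genes by rank, up to 6 genes with 2 or more members, and regions at the limits. Other listed genes were named to complete their lists, and further examples after their values were seen. Some genes that the rule names are not reported here. The planned search for SOX words under all summits was not run, since no genome sequence was used. Scripts were tested on simulated data. The software was Python 3.11.15 with scipy 1.17.1, numpy 2.4.6, matplotlib 3.10.9 and pandas 2.3.3.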

Additional observations from a re-analysis of the deposited data

How the results depend on the processing

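In all 18 alternatives were tried. The number of members ran from 650 to 864 with other distances, summits or stricter SOX2 peaks. It was 1474 without SOX2 replicate 1 and 819 without replicate 2, where a single list defines the regions. The number of listed genes with a member was 81 to 98, and 140 and 94 without SOX2 replicates 1 and 2. Without SOX2 replicates 1 and 2 the share of members with a SOX15 peak was 2.92% and 5.74%, and members minus other SOX2 regions was −1.86 and −6.26 points. Without SOX15 replicates 1, 2 and 3 the share was 5.88%, 5.88% and 0.392%, and members minus other SOX2 regions −3.35, −3.38 and −3.88 points. The difference stayed negative under every alternative run, the smallest being −0.530 points without regions near snRNA, snoRNA or clustered histone genes. The difference from isolated intergenic regions changed sign with SOX2 peaks of −log10 q of at least 5 (−0.00932 points), over 2 kb from gene starts and ends (−0.409), with no other region within 5 kb (−0.0545) and without SOX15 replicate 3 (−0.398, against 0.292 and 0.239 without replicates 1 and 2), and the cause was not tested. Without SOX2 replicate 1 the density was 1.73 members per Mb of gene interior, 3.31 in lineage transcription factor genes and 0.713 in synaptic genes. No paired analysis was possible because the SOX2 and SOX15 replicate numbers enter no common fit; region classes were compared within each SOX15 library. The search for SOX words in windows round all summits was not run. Some alternatives, and the comparison with isolated intergenic regions, were chosen after seeing the data. Depth and weak peaks below the threshold limit every absence stated here.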

Other observations

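On the X chromosome the interiors of genes held 10 members, 0.262 per Mb (exact Poisson 95% interval 0.126 to 0.481), against a median of 0.955 and a range of 0.674 to 1.30 per Mb over the 19 autosomes. Kept SOX2 regions between genes were sparse there too, with 0.205 per Mb (0.131 to 0.305), against 0.742 in the genome as a whole. The X-linked members included the pair in Dmd.

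Of the members' summits, 49 (6.41%) lay in the body of a long noncoding RNA gene as well as in a protein-coding gene. A small nuclear or nucleolar RNA gene was within 1 kb of 2 members, Gm22265 in Hhat and Gm24897 in Klhl8, and SOX15 had a peak at the first of these.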
